A study of Homo sapiens with 6 samples.

Results

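The inhibitor of apoptosis (IAP) genes and death receptors examined here are 10 genes: XIAP, BIRC2, BIRC3, BIRC5 and BIRC6 of the IAP family, DIABLO, whose product blocks IAPs, and the receptors TNFRSF10A, TNFRSF10B, FAS and TNFRSF1A. They were chosen by name, as every RefSeq transcript assigned to one of these symbols, and account for 10 of the 26334 genes and 30 of the 51398 isoforms quantified. The RNA came from PC-9, a human lung adenocarcinoma line with an activating EGFR mutation. No drug is named for these libraries in the labels used here or in the study's methods. The cells carried a scrambled shRNA as control (shScr), or 1 of 2 shRNAs that target the splicing factor RBM10 (shRBM10#1 and shRBM10#2). Each of these 3 conditions has 2 libraries, which makes 6 in all. The control libraries are called shScr after their labels, although the study's methods describe the control as parental cells. Each shRNA condition is a single transduced population as far as the labels go, and nothing in them says whether the 2 libraries of a condition came from separate cultures, so p-values measure the spread between these libraries, which may be technical.

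IAP proteins share a baculoviral IAP repeat. XIAP binds and inhibits caspases directly, whereas the products of BIRC2 and BIRC3 (cIAP1 and cIAP2) are ubiquitin ligases recruited to TNF receptor complexes, where they favor survival signaling. Death receptors are surface proteins with an intracellular death domain that assembles a caspase-activating complex when the ligand binds, and DIABLO (SMAC) leaves the mitochondrion during apoptosis and displaces caspases from IAPs.

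RBM10 was lower upon either shRNA. Its gene total was 83.2 and 86.2 CPM (counts scaled to library size, with TMM factors) in the shScr libraries, against 59.8 and 56.4 with shRBM10#1 and 27.2 and 26.9 with shRBM10#2. The log2 fold change (FC) was -0.54 with shRBM10#1 (FDR = 0.000228 by the quasi-likelihood F-test in edgeR, Benjamini-Hochberg adjusted) and -1.65 with shRBM10#2 (FDR = 5.1e-08), and the shRNAs differed from each other by -1.11 (FDR = 3.65e-06).

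Libraries held between 31953729 and 37557507 expected counts. The mean fragment, taken from the effective lengths, was 231.2 nt in shScr replicate 2 and 264.8 to 281.2 nt in the other libraries, and among genes of 8000 nt or more the median log2 CPM was higher by 0.136 in shScr replicate 2 than in shScr replicate 1. On the TPM scale (a level per transcript length), 81.1% of the 14217 genes tested and 10 of the 10 IAP and death receptor genes were higher in shScr replicate 2 than in shScr replicate 1, and on the TMM-scaled CPM scale 6 of the 10 were. Epithelial markers were high in every library, with KRT8 at 8355 TPM or more and EPCAM at 379 TPM or more, whereas the lung lineage marker NKX2-1 was at 0.39 TPM or less. Of the 7 markers of other cell types, PTPRC was at 0.05 TPM or less, and the highest was COL1A1, at 1.99 to 2.88 TPM. In bulk RNA, fewer cells expressing a gene and less of its RNA per cell cannot be told apart.

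The 10 genes spanned a wide range of levels. TNFRSF1A, the receptor for TNF, was the most abundant per length, with 104.0 and 114.8 TPM in the shScr libraries, followed by BIRC5 at 79.8 and 87.8 TPM and DIABLO at 35.8 and 37.2 TPM. BIRC2, TNFRSF10B and XIAP came next, and then TNFRSF10A and BIRC6. FAS, at 2.45 and 3.66 TPM, and BIRC3, at 1.51 and 2.24 TPM, were lowest. The order was the same in each of the 3 conditions, and neighbors in it did not overlap between libraries of a condition, except TNFRSF10B and XIAP in shScr and in shRBM10#1.

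**Figure D1:**
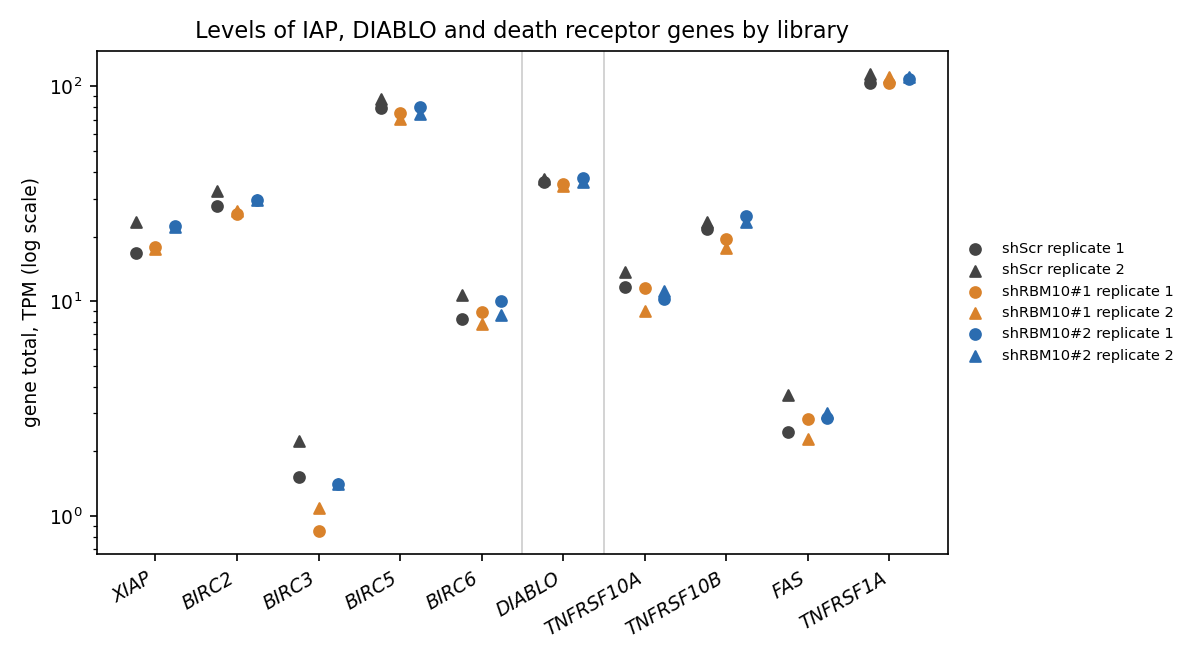
Gene totals in TPM (log scale) for the 10 genes, with 1 point per library, colored by condition and shaped by replicate number. Vertical lines separate the IAP genes, DIABLO and the death receptors. TNFRSF1A sits at or above 103.5 TPM in every library, and BIRC3 at or below 2.24 TPM.

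BIRC3 was lower with shRBM10#1 than in shScr, and it was the only one of the 10 genes that passed the test against shScr with either shRNA. XIAP, BIRC3 and TNFRSF10B were higher with shRBM10#2 than with shRBM10#1. The other 7 genes, among them BIRC2, BIRC5, DIABLO, FAS and TNFRSF1A, did not pass the test in any comparison of gene totals. No call reached an absolute log2 FC of 1, a size that 1.88% of all genes tested reached with a call with shRBM10#1, 1.3% with shRBM10#2, 1.19% between the shRNAs and 0.394% in the pooled comparison.

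With shRBM10#1 against shScr, 1 of the 10 genes was lower and 0 were higher at an FDR below 0.05, whereas 14% of all genes tested were called, 7.13% higher and 6.91% lower. At an unadjusted p below 0.05 there were 2 of the 10 (BIRC3 and TNFRSF10B) and 28.5% of all genes. With shRBM10#2 against shScr, 0 of the 10 were called, and 25.9% of all genes were, 12% higher and 13.9% lower. DESeq2 also called 0 of the 10 there, beside 24.5% of all genes. By edgeR, 2 of them, XIAP and TNFRSF10B, had an unadjusted p below 0.05, as did 37.9% of all genes. Between the shRNAs, 3 of the 10 were higher with shRBM10#2 and 0 were lower, whereas 25.5% of all genes were called, 11% higher and 14.5% lower. At an unadjusted p below 0.05 there were 4 of the 10 and 38.1% of all genes. With the 4 RBM10 KD libraries taken as one group, 0 of the 10 were called by edgeR and by DESeq2, beside 1.62% of all genes by edgeR (0.542% higher and 1.08% lower) and 5.05% by DESeq2. That fit takes the difference between the shRNAs as spread, and RBM10 itself was not called in it (log2 FC -0.99, FDR = 0.146). With 1 coefficient per condition and the mean of both shRNAs set against shScr, RBM10 was called (-1.10, FDR = 3.14e-07), as were 1 of the 10 genes, BIRC3, and 18.4% of all genes. BIRC3 alone among the 10, and 17.2% of all genes, had an unadjusted p below 0.05 in the pooled comparison. Its log2 FC was -0.55 there (FDR = 0.248 in edgeR), and -0.58 with 1 coefficient per condition (FDR = 0.013). Counting both directions, the called share of the 10 genes was under that of all genes against shScr and in both pooled fits, and a little over it between the shRNAs. With limma on log2(TPM + 1), 0 of the 10 were called between the shRNAs, with FDRs of 0.153 for XIAP, 0.19 for BIRC3 and 0.0519 for TNFRSF10B.

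The median log2 FC of the 10 genes was -0.11 with shRBM10#1 and 0.05 with shRBM10#2, beside 0.01 for all genes tested in both. Of the 10, 2 had a positive log2 FC with shRBM10#1 and 7 with shRBM10#2. Between the shRNAs the median was 0.15, beside 0.01 for all genes, and 9 of the 10 were positive. These comparisons share libraries and are not independent of each other.

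**Figure D2:**
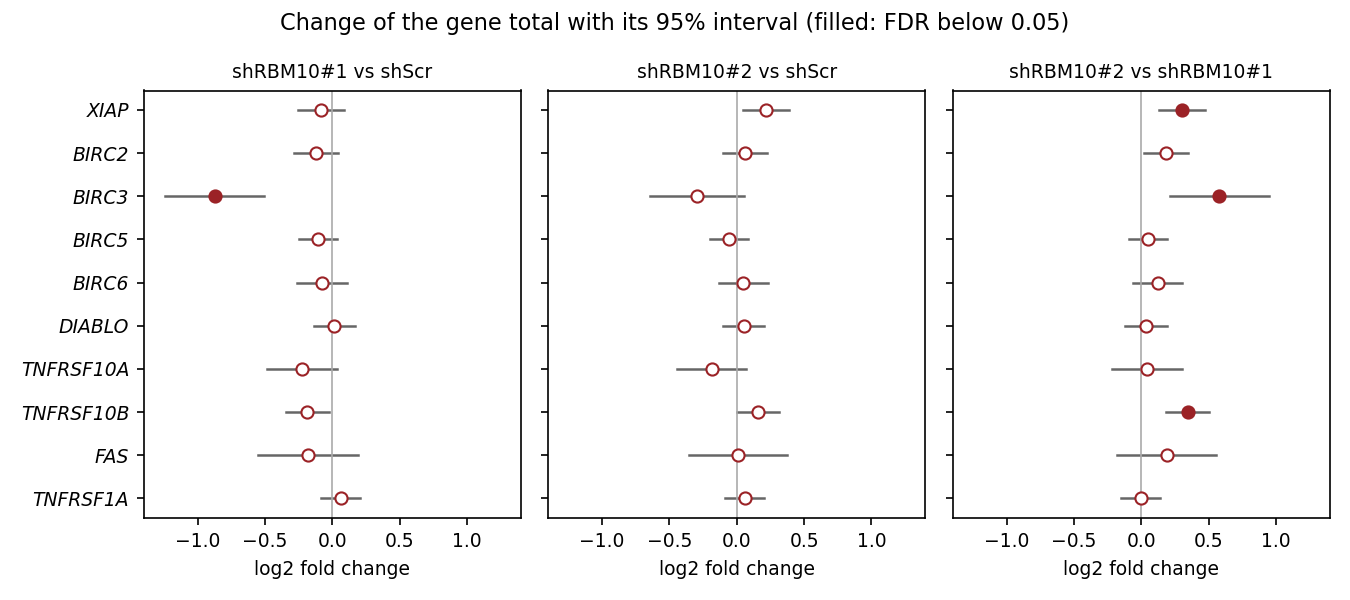
Log2 fold change of each gene total with its 95% interval in the 3 comparisons of conditions, from the edgeR quasi-likelihood fit; filled points have an FDR below 0.05. BIRC3 is filled with shRBM10#1 against shScr, and XIAP, BIRC3 and TNFRSF10B are filled with shRBM10#2 against shRBM10#1.

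Among the IAP genes, BIRC3 (chr11:102317450-102339403, plus strand, GRCh38) moved the most. Its TMM-scaled CPM was 6.41 and 8.48 in shScr, 3.55 and 4.53 with shRBM10#1, and 6.11 and 6.03 with shRBM10#2. The shRBM10#1 libraries lay under all others, and the shRBM10#2 libraries lay between shRBM10#1 and shScr. Expected counts were 111 to 279 per library, so these levels rest on few reads. The log2 FC was -0.87 with shRBM10#1 (SE 0.17, FDR = 0.00448 in edgeR) and -0.29 with shRBM10#2 (95% interval -0.64 to 0.06, FDR = 0.204), and the difference between the shRNAs was 0.58 (SE 0.17, FDR = 0.0258). The call with shRBM10#1 was lost when shScr replicate 2, the library with shorter fragments, was left out (log2 FC -0.66, FDR = 0.0642). The difference between the shRNAs was lost without shRBM10#1 replicate 1 (0.42, FDR = 0.124), without shRBM10#2 replicate 1 (0.57, FDR = 0.114) and without shRBM10#2 replicate 2 (0.60, FDR = 0.113).

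BIRC2, its neighbor on the same strand (chr11:102347211-102378670), stayed closer to the control. It had 56.9 and 60.7 TMM-scaled CPM in shScr, 50.8 and 57.4 with shRBM10#1, and 60.6 and 62.4 with shRBM10#2. The log2 FC was -0.12 (95% interval -0.28 to 0.05) with shRBM10#1 and 0.06 (-0.10 to 0.23) with shRBM10#2. Both shRNAs overlapped the shScr libraries, but not each other. The difference between the shRNAs, 0.18, did not pass the test (FDR = 0.0948), and it passed without shRBM10#1 replicate 2 (0.27, FDR = 0.0255).

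XIAP (chrX:123859724-123913979, plus strand) had 90.4 and 107.9 TMM-scaled CPM in shScr, 93.0 and 94.4 with shRBM10#1, and 116.4 and 114.6 with shRBM10#2. The shRBM10#1 libraries fell inside the shScr range and the shRBM10#2 libraries above it. The log2 FC was -0.08 with shRBM10#1 (FDR = 0.539) and 0.22 with shRBM10#2 (SE 0.08, FDR = 0.0566 in edgeR), and the shRNAs differed by 0.30 (SE 0.08, FDR = 0.0145). The level per length gave a different picture against shScr, since the 22.4 and 22.1 with shRBM10#2 lay inside the 16.8 to 23.3 TPM of the control. Without shScr replicate 2 the log2 FC with shRBM10#2 passed the test (0.35, FDR = 0.0122), and without shScr replicate 1 it was 0.10 (FDR = 0.382). The difference between the shRNAs was lost without either shRBM10#2 library, at FDR = 0.116 without replicate 1 and FDR = 0.095 without replicate 2.

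BIRC5 encodes survivin, which acts in mitosis as a subunit of the chromosomal passenger complex. It gave 132.2 and 127.7 TMM-scaled CPM in shScr, 122.3 and 118.9 with shRBM10#1, and 129.6 and 120.2 with shRBM10#2. Both shRBM10#1 libraries were under the shScr range, by a log2 FC of -0.11 (95% interval -0.25 to 0.03) that did not pass the test. BIRC6, a very large ubiquitin-conjugating IAP, had log2 FCs of -0.08 and 0.05, with intervals of -0.26 to 0.11 and -0.14 to 0.23, and its libraries overlapped in all comparisons.

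DIABLO stayed close to the control, with log2 FCs of 0.02 and 0.05. It had 46.9 and 43.6 TMM-scaled CPM in shScr, 45.3 and 46.2 with shRBM10#1, and 48.0 and 45.8 with shRBM10#2. The intervals of its log2 FC, -0.14 to 0.17 with shRBM10#1 and -0.10 to 0.20 with shRBM10#2, leave room for changes of that size in either direction.

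TNFRSF10B (chr8:23020133-23069179, minus strand), which encodes the TRAIL receptor DR5, had 58.4 and 54.6 TMM-scaled CPM in shScr, 51.4 and 48.2 with shRBM10#1, and 65.3 and 61.1 with shRBM10#2. The 3 conditions did not overlap, with shRBM10#1 lowest and shRBM10#2 highest. Against shScr neither step passed the test, at log2 FCs of -0.18 (95% interval -0.34 to -0.03, FDR = 0.118) and 0.16 (0.00 to 0.32, FDR = 0.123), whereas the difference between the shRNAs was 0.34 (SE 0.07, FDR = 0.00496 in edgeR). It was lost without shRBM10#2 replicate 1 (0.29, FDR = 0.0916). The gene overlaps RHOBTB2 on the other strand by 67 bp in GENCODE 29, and strandedness is not given in the sources used here, so reads in the overlap cannot be assigned to a strand.

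The other TRAIL receptor gene, TNFRSF10A (DR4), had 12.01 and 12.6 TMM-scaled CPM in shScr, 11.7 and 9.42 with shRBM10#1, and 10.3 and 11.3 with shRBM10#2. All 4 RBM10 KD libraries were under both shScr libraries, and the log2 FCs of -0.23 (95% interval -0.49 to 0.03) and -0.19 (-0.44 to 0.07) did not pass the test. With shRBM10#1 it passed when replicate 1 of that condition was left out (-0.38, FDR = 0.0458). Unlike TNFRSF10B, it did not differ between the shRNAs at this depth (0.04, 95% interval -0.22 to 0.30).

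FAS, the receptor for FAS ligand, had 4.16 and 5.44 TMM-scaled CPM in shScr, 4.60 and 3.91 with shRBM10#1, and 4.69 and 4.99 with shRBM10#2. Both shRNAs overlapped shScr, and the intervals, -0.55 to 0.19 and -0.35 to 0.37, were among the widest of the 10 genes. FAS and ACTA2 overlap on opposite strands by 758 bp, and ACTA2 held 12 to 30 expected counts per library, or 6.7% to 15.7% of the FAS count. TNFRSF1A, the most abundant receptor, had 142.3 and 138.5 TMM-scaled CPM in shScr, 139.2 and 154.3 with shRBM10#1, and 144.9 and 147.9 with shRBM10#2. Its log2 FC was 0.06 with either shRNA, with an upper bound of 0.21 in both.

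Counted by groups that do not overlap, with 2 libraries against 2, 4 of the 10 genes were lower with shRBM10#1 than in shScr (BIRC3, BIRC5, TNFRSF10A and TNFRSF10B) and 0 were higher, whereas 53.6% of all genes did not overlap, 27.9% higher and 25.7% lower. With shRBM10#2 against shScr, 3 were higher (XIAP, TNFRSF10B and TNFRSF1A) and 2 lower (BIRC3 and TNFRSF10A), beside 66.6% of all genes, 33.6% higher and 33% lower. Between the shRNAs, 5 were higher with shRBM10#2 (XIAP, BIRC2, BIRC3, TNFRSF10B and FAS) and 0 lower, beside 65.1% of all genes, 32.9% higher and 32.1% lower.

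**Figure D3:**
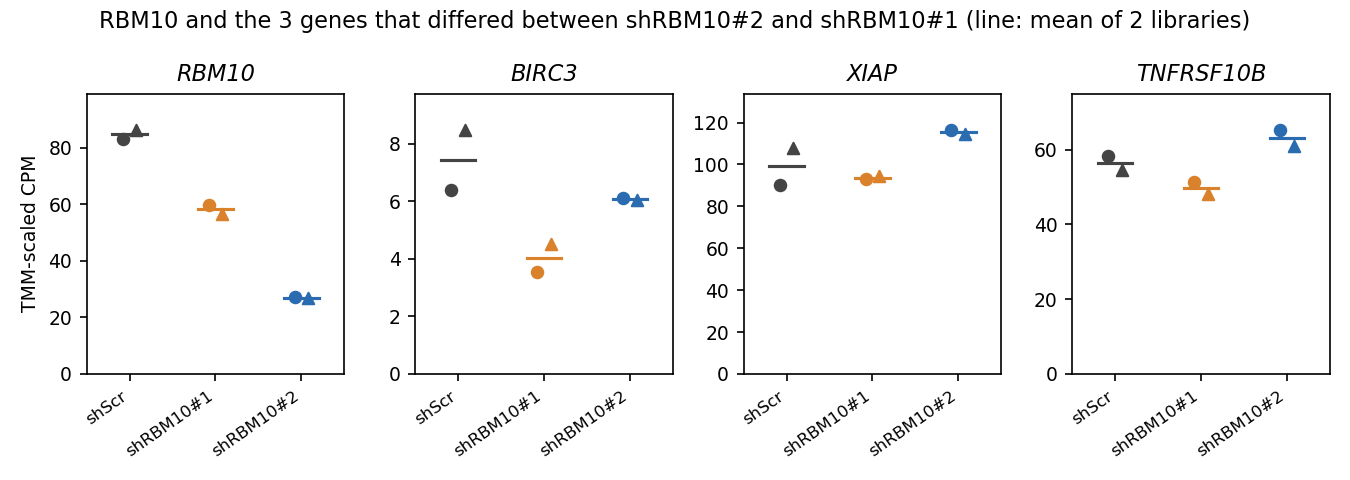
TMM-scaled CPM of RBM10 and of the 3 genes that differed between the shRNAs, with 1 point per library and a line at the mean of the 2 libraries of a condition; each axis starts at 0. RBM10 falls in steps from shScr to shRBM10#2, whereas BIRC3, XIAP and TNFRSF10B are lowest in mean with shRBM10#1.

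The 3 genes that differed between the shRNAs were each lowest in mean with shRBM10#1, and RBM10 itself was lowest with shRBM10#2. These 3 were picked by that difference. With shRBM10#1, XIAP and TNFRSF10B did not pass the test against shScr (FDR = 0.539 and 0.118 in edgeR). Whether any of the 10 genes follows the level of RBM10 was not tested.

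RBM10 is a splicing factor, so the isoforms of each gene were compared as well. Of the 30 isoforms, 24 passed the filter on low counts, and 23 were above 0 in every library. BIRC6, TNFRSF10A and TNFRSF1A are represented by 1 isoform each. No isoform of the 10 genes was called by edgeR in any comparison, whereas 0.0302% of all isoforms were called with shRBM10#1, 2.26% with shRBM10#2, 2.25% between the shRNAs and 0% in the pooled comparison. The numbers of these isoforms with an unadjusted p below 0.05 were 2 with shRBM10#1 (14.5% of all isoforms), 1 with shRBM10#2 (21.5%), 4 between the shRNAs (20.3%) and 1 in the pooled comparison (10.9%). DESeq2 called 2 with shRBM10#1, NM_001165 of BIRC3 (log2 FC -0.98, FDR = 0.00667) and NM_001012271 of BIRC5 (-0.31, FDR = 0.0465), and 0 with shRBM10#2 and in the pooled comparison. DESeq2 called 9.35% of all isoforms with shRBM10#1, 17.7% with shRBM10#2 and 3.1% in the pooled comparison. Between the shRNAs it called 16% of all isoforms and 3 of the 24, NM_001165 of BIRC3 (0.77), NM_147187 of TNFRSF10B (0.31) and NM_001167 of XIAP (0.41).

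Isoform usage, meaning how the output of a gene is divided among its isoforms, was tested in the 6 genes with at least 2 isoforms past the filter: XIAP, BIRC2, BIRC3, BIRC5, DIABLO and TNFRSF10B. None of the 6 was called in any comparison by edgeR's diffSpliceDGE, and 0 had an unadjusted edgeR p below 0.05. Among all 6405 genes tested for usage, 0.172% were called with shRBM10#1, 2.75% with shRBM10#2, 1.92% between the shRNAs and 0.515% in the pooled comparison. At an unadjusted p below 0.05 these shares were 6.17%, 10.4%, 8.68% and 5.43%. The lowest FDR per gene was that of XIAP with shRBM10#2 (FDR = 0.923 in edgeR). On simulated counts, with 1 condition changed by a log2 fold of 2 in isoforms of 198 genes, this test recovered 29.8% of them. Of its calls there, 20.3% were false. A gene that was not called here may thus still have changed in usage.

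The isoforms of BIRC5 differ in known ways. Exon 3 (chr17:78216664-78216781, plus strand, GRCh38) is 118 nt and is absent from NM_001012270, which ends in a different reading frame, and NM_001012271 (survivin-2B) carries an extra exon of 69 nt (chr17:78215966-78216034). In GENCODE 29 the 3 isoforms encode 142, 137 and 165 codons for NM_001168, NM_001012270 and NM_001012271. The 30-nt junctions after exon 2 that tell them apart are shown 5′ to 3′, with the first bases of the exon joined to exon 2 in capitals.
BIRC5 NM_001168, exon 2 to exon 3: agatgacgaccccatAGAGGAACATAAAAA
BIRC5 NM_001012270, exon 2 to exon 4: agatgacgaccccatGCAAAGGAAACCAAC
BIRC5 NM_001012271, exon 2 to exon 2B: agatgacgaccccatTGGGCCGGGCACGGT

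The common form NM_001168 gave 75.8% and 77.3% of BIRC5 in shScr, 78.0% and 78.9% with shRBM10#1, and 78.7% and 75.7% with shRBM10#2. The form without exon 3 gave 6.63% and 5.18% in shScr, 6.11% and 6.68% with shRBM10#1, and 6.49% and 7.64% with shRBM10#2, so the groups overlapped. The 2B form gave 17.5% in either control library. It gave 15.9% and 14.4% with shRBM10#1, and 14.8% and 16.7% with shRBM10#2. All 4 RBM10 KD libraries were under both shScr libraries for 2B, but how many isoforms of all genes separate in this way was not counted. In the pooled comparison the share of 2B did not pass the usage test of single isoforms (unadjusted p = 0.438 by diffSpliceDGE). The log2 FC of 2B in the isoform test was -0.31 with shRBM10#1 (FDR = 0.231 in edgeR), and BIRC5 did not pass the usage test.

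FAS has a splice choice that decides whether the receptor stays in the membrane. Exon 6 (chr10:89010753-89010815, plus strand, GRCh38; 63 nt) encodes most of the transmembrane segment, and NM_152871, which leaves it out, encodes a soluble form of 314 codons against 335 for NM_000043. The junctions that tell the forms apart are given with the first bases after exon 5 in capitals.
FAS with exon 6, exon 5 to exon 6: agtgcaaagaggaagGATCCAGATCTAACT
FAS without exon 6, exon 5 to exon 7: agtgcaaagaggaagTGAAGAGAAAGGAAG

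The soluble form NM_152871 had 0 expected counts in all 6 libraries. FAS as a whole had 135 to 191 expected counts per library. The forms differ by exon 6 alone, so only the few fragments that cross it or the junction of exons 5 and 7 can tell them apart. An expected count of 0 is then an assignment of reads by RSEM, and it sets no limit here on the share of the soluble form. The membrane form NM_000043 gave 100% of FAS in either control library, but 84.1% and 97.5% with shRBM10#1, and 96.2% and 100% with shRBM10#2. The remainder in shRBM10#1 replicate 1 was NR_028034, at 15.9% of FAS, or 0.45 TPM; in GENCODE 29 the transcript matched to it also lacks exon 6. That isoform was at 0 in the other 5 libraries, so the 15.9% rests on 1 library.

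XIAP was split among 3 isoforms, by shares that are assignments of reads by RSEM. How many reads tell the 3 apart was not counted. The largest share went to NR_037916, a transcript with no coding sequence in GENCODE 29, with 57.0% and 62.0% in shScr, 63.7% and 64.2% with shRBM10#1, and 63.6% and 64.0% with shRBM10#2. NM_001167 and NM_001204401 both encode 497 codons. NM_001204401 gave 13.2% and 7.41% in shScr, 8.54% and 5.10% with shRBM10#1, and 7.0% and 2.61% with shRBM10#2. Replicates of one condition differed by more than the step between conditions for this isoform, and its share did not pass the usage test of single isoforms with shRBM10#2 (FDR = 0.729 in edgeR). NM_001167, at 27.8% to 33.4% of XIAP, was higher with shRBM10#2 than with shRBM10#1 by a log2 FC of 0.41 (SE 0.13, FDR = 0.167 in edgeR), which did not pass the test.

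TNFRSF10B came mainly from 2 isoforms, NM_003842, which encodes 440 codons, and NM_147187, which encodes 411. NM_003842 held 51.7% and 51.1% in shScr, 53.1% and 49.7% with shRBM10#1, and 56.8% and 47.5% with shRBM10#2. The 2 libraries of shRBM10#2 spanned the range of the other 4. Between the shRNAs, the log2 FC of the isoform level was 0.37 for NM_003842 and 0.32 for NM_147187, close to the 0.34 of the gene total. The noncoding NR_027140 had 96.1 expected counts in shScr replicate 1 and 8.88 to 28.1 in the other 5 libraries.

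In BIRC3, NM_001165 held 76.9% and 84.5% in shScr, 77.3% and 69.6% with shRBM10#1, and 90.2% and 85.9% with shRBM10#2. It carried most of the change in the gene total, at -0.99 on the log2 scale with shRBM10#1 (SE 0.24, FDR = 0.164 in edgeR). NM_182962, the rest of the gene, had 14.3 to 35.3 expected counts per library. Both isoforms were matched to 1 GENCODE transcript of 604 codons.

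BIRC2 was split between NM_001166, at 52.9% to 65.1%, which encodes 618 codons, and NM_001256166, at 32.3% to 44.6%, which encodes 569. In shScr the 2 libraries gave 54.6% and 65.1% for NM_001166, and in shRBM10#1 52.9% and 63.9%, so the spread within a condition covered the conditions. For DIABLO, NM_019887 (239 codons) held 51.7% and 57.7% in shScr, 56.5% and 54.7% with shRBM10#1, and 47.0% and 50.7% with shRBM10#2. NM_138930 (166 codons) held 27.4% and 15.6% in shScr and 25.3% to 29.2% in the RBM10 KD libraries. Only shScr replicate 2, the library with shorter fragments, stood apart, and the part of fragment length in this share was not tested. NM_001278304 of DIABLO held 8.80% and 11.2% in shScr, 6.01% and 9.56% with shRBM10#1, and 11.7% and 8.04% with shRBM10#2. NM_001278342 held 6.47% and 10.0% in shScr, 4.64% and 7.53% with shRBM10#1, and 5.36% and 4.88% with shRBM10#2.

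**Figure D4:**
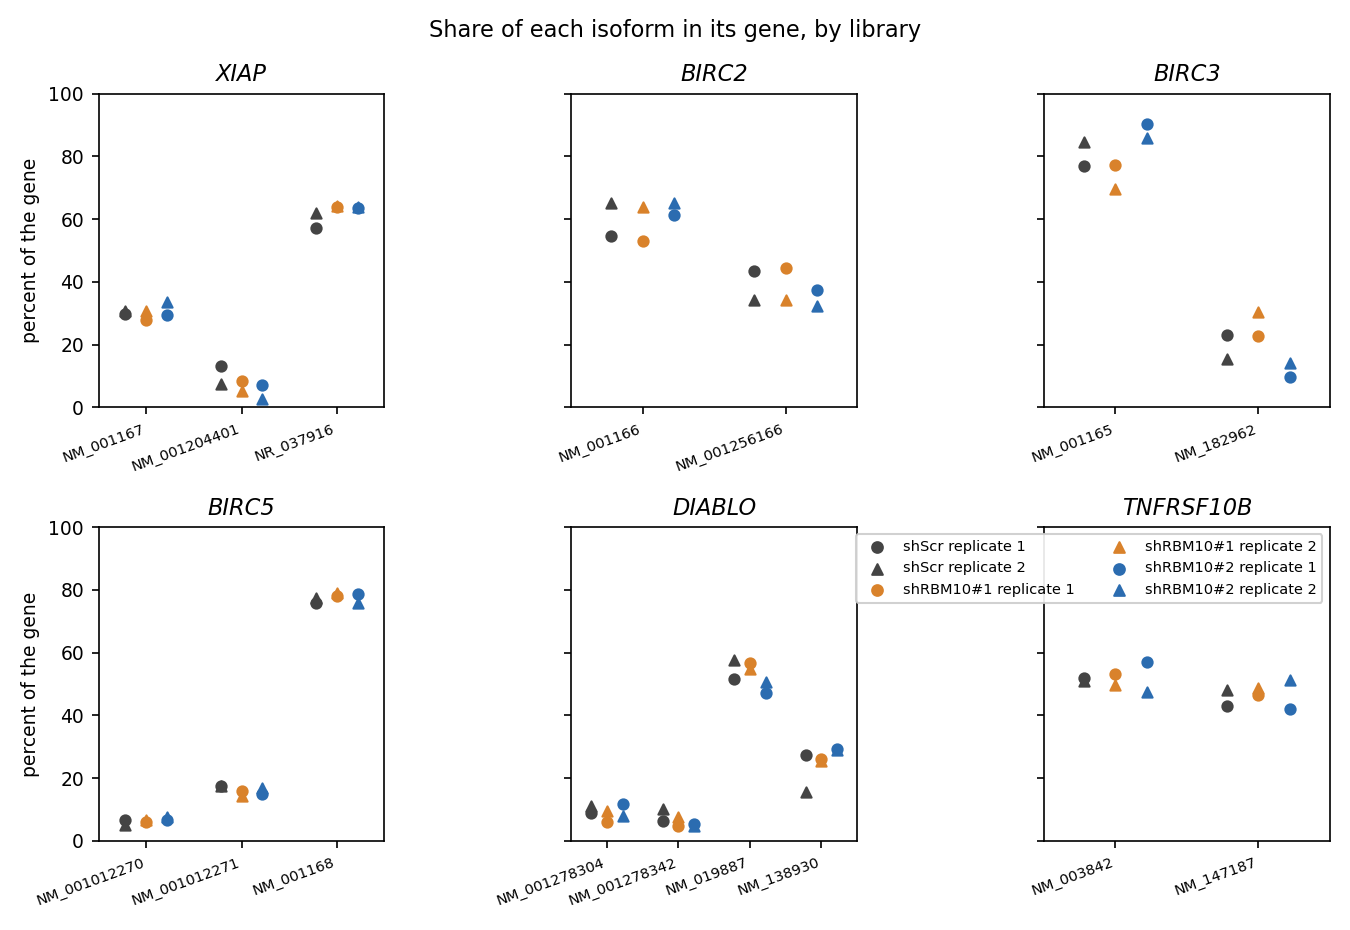
Share, in percent, held by the isoforms of a gene with at least 5% of the counts of the gene in a condition, for the 6 genes tested for isoform usage; 1 point per library, colored by condition and shaped by replicate number. In shScr the 2 replicates lie apart for NM_001166 of BIRC2 (54.6% and 65.1%) and NM_138930 of DIABLO (27.4% and 15.6%).

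The genes that act with the IAPs and death receptors were counted in 7 lists, of which 68 genes were tested. The lists were chosen with earlier results of these data known, and both shRNAs are compared with the same shScr libraries. With both shRNAs in the same direction, 4 of the 68 were called, beside 6.08% of all genes. The 4 were lower (3.46% of all genes were lower with both) and belong to the list of ubiquitin enzymes, kinases and NF-kB genes of TNF signaling: TNFAIP3, RELB, NFKB2 and MAP3K14. Of the 19 tested genes of that list, 0 were higher and 4 lower with shRBM10#1, and 1 was higher and 9 lower with shRBM10#2. Lower calls over all genes were 6.91% and 13.9% in these comparisons. DESeq2 called 2 and 7 of the list lower, and limma on log2(TPM + 1) 2 and 5. The median log2 FC of the list was -0.12 and -0.23, beside 0.01 for all genes. The 1 gene of the list called higher, with shRBM10#2, was NFKBIA, where 12% of all genes were higher. Its log2 FC was 0.25 with shRBM10#1 (FDR = 0.134) and 0.37 with shRBM10#2 (FDR = 0.019 in edgeR). Across the alternatives, 0 to 1 genes of the list were higher with shRBM10#2. Without shScr replicate 2, 2 were lower with shRBM10#1 and 5 with shRBM10#2; without shScr replicate 1, 1 and 5. Without shRBM10#2 replicate 1, 5 were lower with shRBM10#2, and without shRBM10#2 replicate 2, 1 was. Without shRBM10#1 replicate 2, 2 were lower with shRBM10#1.

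TNFAIP3 encodes A20, a ubiquitin-editing enzyme that restrains TNF receptor signaling and is itself induced by NF-kB. It had 114 and 139 expected counts in shScr, 50 and 72 with shRBM10#1, and 80 and 79 with shRBM10#2, at 1.13 and 1.55, 0.52 and 0.62, and 0.71 and 0.68 TPM. The log2 FC was -1.11 with shRBM10#1 (SE 0.21, FDR = 0.00331) and -0.87 with shRBM10#2 (SE 0.20, FDR = 0.00756 in edgeR). With shRBM10#2 the call was lost without shScr replicate 2 (-0.74, FDR = 0.0641), without shRBM10#2 replicate 1 (-0.91, FDR = 0.0535) and without shRBM10#2 replicate 2 (-0.84, FDR = 0.0776). By edgeR it was the one pathway gene called in the pooled comparison (-0.99, FDR = 0.0416), a call also made by DESeq2 (FDR = 0.00264) and lost with the replicate block (FDR = 0.094), with limma on log2(TPM + 1) (FDR = 0.0502), without shScr replicate 1 (FDR = 0.321), shScr replicate 2 (FDR = 0.406), shRBM10#1 replicate 2 (FDR = 0.0778) and either shRBM10#2 library (FDR = 0.0509 and 0.0523). DESeq2 also called NFKB2 (FDR = 0.00713) and RELB (FDR = 0.0433) in that comparison.

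NFKB2, RELB and MAP3K14 belong to the noncanonical NF-kB branch, in which MAP3K14 (NIK) is the kinase that cIAPs mark for degradation. NFKB2 had 25.8 and 26.9 TPM in the controls, and 19.8 and 19.5 with shRBM10#1 against 19.6 and 19.1 with shRBM10#2, and its log2 FC was -0.34 (FDR = 0.00824) and -0.39 (FDR = 0.00256). RELB fell by 0.48 and 0.46 on the log2 scale (FDR = 0.0234 and 0.0167). MAP3K14 had 17.0 and 18.8 TPM in the controls, and 14.7 and 13.7 with shRBM10#1 against 13.4 and 12.8 with shRBM10#2, with log2 FCs of -0.23 (FDR = 0.0418) and -0.39 (FDR = 0.00214). NFKB2 lost its call with shRBM10#1 without shScr replicate 1 (FDR = 0.0588) and with shRBM10#2 without shRBM10#2 replicate 2 (FDR = 0.0534). RELB and MAP3K14 lost theirs with shRBM10#1 without either shScr library or shRBM10#1 replicate 2, at FDRs of 0.0671, 0.111 and 0.0747 for RELB and 0.134, 0.0865 and 0.146 for MAP3K14. MAP3K14 also lost it without either shRBM10#2 library (FDR = 0.104 and 0.0966) and with the replicate block (FDR = 0.0634). DESeq2 called neither with shRBM10#1 (FDR = 0.0514 for RELB and 0.0676 for MAP3K14), nor did limma on log2(TPM + 1) (FDR = 0.052 and 0.133). In all, MAP3K14 with shRBM10#1 was called in 5 of 13 alternatives and RELB in 8. With shRBM10#2, RELB lost its call without either shScr library (log2 FC -0.48 and -0.44), without shRBM10#2 replicate 2 (-0.35) and with limma (FDR = 0.0516). MAP3K14 lost its call with shRBM10#2 only without shRBM10#2 replicate 2 (log2 FC -0.35).

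Of the 6 tested death ligands, decoys and other death receptors, 1 was higher with each shRNA, beside 7.13% and 12% of all genes. TNFSF10, the TRAIL ligand of TNFRSF10A and TNFRSF10B, had 1.35 and 2.04 TPM in the controls, and 1.63 and 1.93 with shRBM10#1 against 3.52 and 3.37 with shRBM10#2. Its log2 FC was 1.12 with shRBM10#2 (SE 0.21, FDR = 0.00252 in edgeR) and 0.21 with shRBM10#1 (FDR = 0.58), and the shRNAs differed by 0.91 (FDR = 0.00651), a call lost without shRBM10#2 replicate 1 (FDR = 0.0591) or replicate 2 (FDR = 0.0537). TNFRSF21 (DR6) had 103.9 and 125.5 TPM in the controls, and 144.2 and 139.3 with shRBM10#1 against 98.2 and 95.5 with shRBM10#2. It was higher with shRBM10#1 by a log2 FC of 0.41 (FDR = 0.000897), was at -0.18 with shRBM10#2 (FDR = 0.051), and differed between the shRNAs by -0.58 (FDR = 0.000131). With limma on log2(TPM + 1) the call with shRBM10#1 was lost (FDR = 0.0731), and with shRBM10#2 it was called lower in 6 of 13 alternatives, DESeq2 among them (FDR = 0.0297). FASLG was at 0 in every library and TNF at 0.03 TPM or less.

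Of 12 genes of the receptor complex and caspase-8 branch, 1 was lower with shRBM10#1 (MLKL), and with shRBM10#2 1 was higher (CASP8, 0.37) and 2 lower (TRADD, -0.30, and RIPK1, -0.24), where 6.91% of all genes were lower with shRBM10#1, and 12% higher and 13.9% lower with shRBM10#2. The call of MLKL was lost without either shScr or either shRBM10#1 library and with limma on log2(TPM + 1). With shRBM10#2, 0 of the 12 were called without replicate 2 of that condition, 0 lower without its replicate 1, and 1 lower without either shScr library, with DESeq2 and with limma, which called 0 higher. In the list of IAP antagonists, apoptosome genes and caspases, 0 genes were called with shRBM10#1, and 1 was higher without shRBM10#1 replicate 1. With shRBM10#2, 3 of the 8 tested genes of this list were higher and 0 lower, beside 12% and 13.9% of all genes. CYCS, which encodes cytochrome c, and APAF1, the scaffold of the apoptosome, were among those higher. Their log2 FCs were 0.23 and 0.28 (FDR = 0.0415 and 0.0236 in edgeR). No call in their list was left without shScr replicate 1, without either shRBM10#2 library or with limma, and 1 was left without shScr replicate 2, with DESeq2 and with the replicate block. BIRC7 and NAIP, the 2 tested members of the wider IAP family, were not called, and BIRC8 was at 0 in every library. Of the 3 partners of survivin in the chromosomal passenger complex, INCENP was lower with shRBM10#2 (-0.33, FDR = 0.0219), a call lost without either shScr library, without either shRBM10#2 library and with limma. Of 18 mitosis genes, 0 were called with shRBM10#1, beside 14% of all genes, and 4 were higher with shRBM10#2, beside 12%. The 4 became 2 without either shRBM10#2 library and with limma. With shRBM10#1, 3 were lower without its replicate 1, 2 were lower without the filter on low counts, and 1 was higher without shScr replicate 1. CDK1, the kinase that drives entry into mitosis, was at 191.3 and 213.0 TPM in the controls, and 201.6 and 203.8 with shRBM10#1 against 297.5 and 293.0 with shRBM10#2 (log2 FC 0.60, FDR = 9.23e-05), while BIRC5 itself was at -0.06 in that comparison. INCENP, CASP8, MLKL, CYCS, APAF1, TRADD, RIPK1 and NFKBIA were named after their values were seen.

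**Figure D5:**
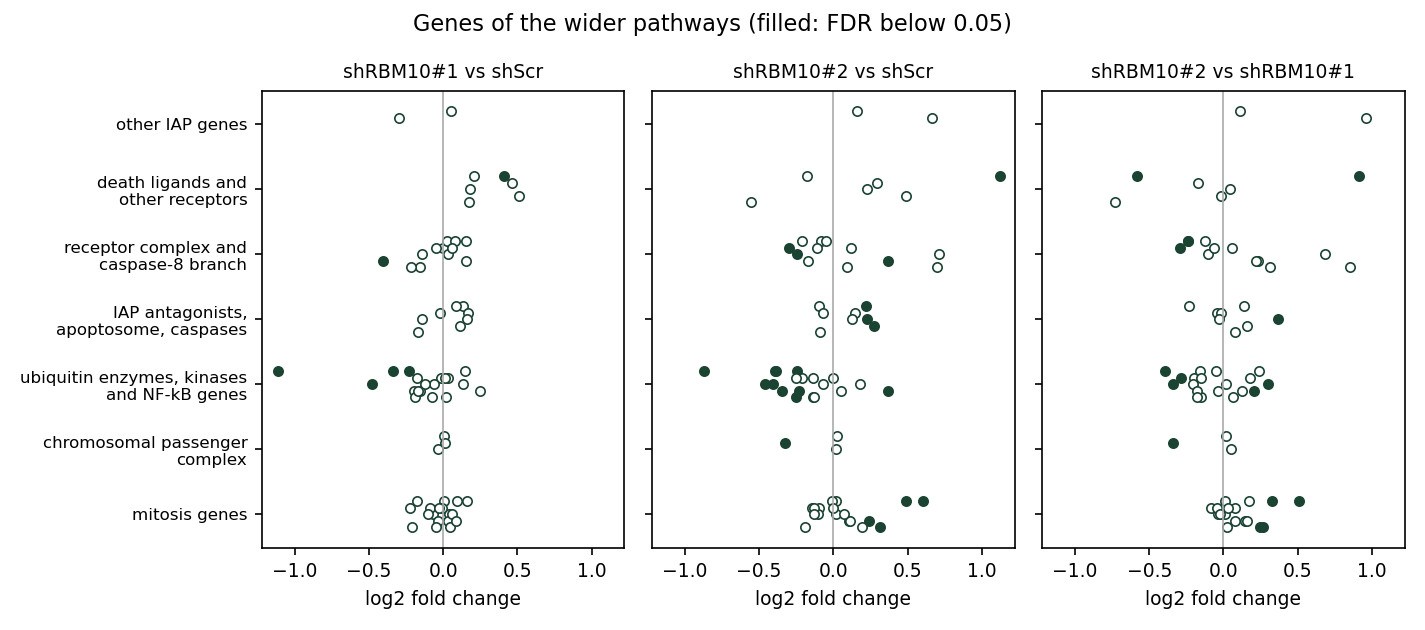
Log2 fold change of each tested gene of the 7 lists in the 3 comparisons of conditions, with 1 point per gene and filled points at an FDR below 0.05. In the list of ubiquitin enzymes, kinases and NF-kB genes, 4 filled points lie under 0 with shRBM10#1 and 9 with shRBM10#2.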

How the data were processed

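The authors sequenced RNA of PC-9 cells and quantified RefSeq isoforms with RSEM 1.2.29 after alignment with STAR 2.4 to hg19, as listed in the submitters' processing notes. The authors deposited, per isoform and library, expected counts (fractional where a read fits several isoforms), TPM, FPKM (not used here) and the percent of the gene given by the isoform. Strandedness, read length and the edgeR test used are not given in the sources used here.

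Expected counts were summed per gene symbol, rounded, scaled by TMM and tested with edgeR 4.0.16 (quasi-likelihood, R 4.3.3) after filterByExpr by condition, in 1 fit of the 3 conditions. The pooled comparison had 1 coefficient for the 4 RBM10 KD libraries. Benjamini-Hochberg adjustment covered the 14217 genes or 26464 isoforms tested, and calls had an FDR below 0.05. Intervals are 95%. Isoform usage was tested with diffSpliceDGE (Simes p per gene). DESeq2 1.42.0 and limma 3.58.1 served for alternatives, figures were drawn with matplotlib 3.10.9, and the scripts were tested on simulated counts. With 200 simulated gene totals changed by a log2 fold of 1, 98% were recovered and 10.1% of the calls were false. Here and for isoform usage, the changed genes or isoforms were drawn from those above a minimum mean count. Recovery at low counts was not tested. All tests were two-sided. Each library had 31953729 to 37557507 expected counts.

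Junctions, codons, overlaps and coordinates come from GENCODE 29 (GRCh38) and were not converted to hg19. Each of the 30 isoforms was matched to a transcript there by its RefSeq name. Some isoforms of a gene share 1 transcript, NM_138930 of DIABLO among them, so their codons are those of the shared transcript. The 10 genes, the pathway lists and the rules were chosen with earlier results of these data known. Named were all 10 genes, RBM10, isoforms with at least 5% of the counts of their gene in a condition, pathway genes called with both shRNAs in the same direction, and the 3 called pathway genes with the largest log2 FC per comparison. Within conditions, gene totals differed beyond counting noise (chi-square per degree of freedom 3.16 to 11.92), so every library was counted. 1 pathway gene is not reported here.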

Additional observations from a re-analysis of the deposited data

Results flagged for a closer look

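The effects of the shRNAs differed for 3 of the 10 genes by the test of shRBM10#2 against shRBM10#1 itself. Of all genes tested, 25.5% were called there, and 32.9% were higher in both shRBM10#2 libraries than in both shRBM10#1 libraries. BIRC3 differed by a log2 FC of 0.58 (FDR = 0.0258, edgeR quasi-likelihood test), TNFRSF10B by 0.34 (FDR = 0.00496) and XIAP by 0.30 (FDR = 0.0145), each higher with shRBM10#2 in both of its libraries than in both shRBM10#1 libraries. RBM10 was lower with shRBM10#2 than with shRBM10#1.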

How the results depend on the processing

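Against shScr, BIRC3 with shRBM10#1 was called in 12 of 13 alternatives, and XIAP with shRBM10#2, which was not called in the report, in 6 of 13. Between the shRNAs, TNFRSF10B was called in 11 of 13, XIAP in 10 and BIRC3 in 9. No call of the 10 genes changed direction under any alternative, and isoform usage of the 10 genes was called under none. With 1 library left in a condition, that library was taken to vary like the others. Depth limits BIRC3 (111 to 279 expected counts) and FAS (135 to 191) most. DESeq2 size factors kept every number within 1.5 times. For the numbers that moved, the cause was not tested.

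Numbers of calls in the report were, in all, 230 in the pooled comparison, 1996 with shRBM10#1, 3685 with shRBM10#2, 3628 between the shRNAs for all gene totals, 0 in the pooled comparison, 8 with shRBM10#1, 597 with shRBM10#2, 595 between the shRNAs for all isoforms and 33 in the pooled comparison, 11 with shRBM10#1, 176 with shRBM10#2, 123 between the shRNAs for usage of all genes. With DESeq2, the numbers were 718 in the pooled comparison for all gene totals, 2 with shRBM10#1, 3 between the shRNAs for isoforms of the 10 genes and 818 in the pooled comparison, 2426 with shRBM10#1, 4597 with shRBM10#2, 4230 between the shRNAs for all isoforms. Without the filter on low counts, the numbers were 1 with shRBM10#2 for totals of the 10 genes and 39 with shRBM10#1 for all isoforms. With at least 10 counts in every library, the numbers were 1 with shRBM10#2 for totals of the 10 genes, 18 in the pooled comparison, 380 with shRBM10#1, 1647 with shRBM10#2, 1403 between the shRNAs for all isoforms and 9 in the pooled comparison, 7 with shRBM10#1, 81 between the shRNAs for usage of all genes. With limma on log2(TPM + 1), the numbers were 0 between the shRNAs for totals of the 10 genes, 130 in the pooled comparison, 960 with shRBM10#1, 1651 with shRBM10#2, 1264 between the shRNAs for all gene totals and 10 in the pooled comparison, 46 with shRBM10#1, 353 with shRBM10#2, 227 between the shRNAs for all isoforms. With a length offset (loess span 0.3), added after the data were seen, the numbers were 1 with shRBM10#2 for totals of the 10 genes. With an absolute log2 FC above 1 in addition, the numbers were 0 with shRBM10#1, 0 between the shRNAs for totals of the 10 genes, 56 in the pooled comparison, 267 with shRBM10#1, 185 with shRBM10#2, 169 between the shRNAs for all gene totals and 130 with shRBM10#2, 95 between the shRNAs for all isoforms. With 1 coefficient per condition in the pooled comparison, the numbers were 1 in the pooled comparison for totals of the 10 genes, 2610 in the pooled comparison for all gene totals, 42 in the pooled comparison for all isoforms and 96 in the pooled comparison for usage of all genes. With limma's diffSplice, the numbers were 42 with shRBM10#1, 571 with shRBM10#2, 339 between the shRNAs for usage of all genes. With isoforms of at least 5% of the counts of their gene, the numbers were 31 with shRBM10#1 for usage of all genes. At an FDR below 0.01, the numbers were 10 in the pooled comparison, 4 with shRBM10#1, 70 with shRBM10#2, 35 between the shRNAs for usage of all genes. With each library left out in turn, the numbers ran, for totals of the 10 genes 0 to 2 with shRBM10#1, 0 to 1 with shRBM10#2, 0 to 4 between the shRNAs. They ran for all gene totals 0 to 413 in the pooled comparison, 985 to 2626 with shRBM10#1, 954 to 4566 with shRBM10#2, 918 to 3736 between the shRNAs. They ran for all isoforms 0 to 2 in the pooled comparison, 0 to 1 with shRBM10#1, 0 to 151 with shRBM10#2, 0 to 2 between the shRNAs. They ran for usage of all genes 11 to 43 in the pooled comparison, 5 to 39 with shRBM10#1, 34 to 151 with shRBM10#2, 27 to 114 between the shRNAs.

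Same-numbered libraries deviated from their condition means with correlations of -0.107, -0.049 and -0.058 across 13327 genes. No strong effect shared by replicate number was thus seen, and no fit in the report had a block. These correlations cannot tell whether the replicate numbers in the labels mark pairs. With the replicate block, the numbers were 52 in the pooled comparison for all gene totals, 0 with shRBM10#1, 0 with shRBM10#2, 0 between the shRNAs for all isoforms and 13 in the pooled comparison, 4 with shRBM10#1, 83 with shRBM10#2, 48 between the shRNAs for usage of all genes. It changed no call of the 10 genes, and BIRC3 with shRBM10#1 was at a log2 FC of -0.88. With the numbers of shRBM10#1 exchanged, a pairing added after the data were seen, 1 of the 10 genes and 2227 genes in all were called with shRBM10#1.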
